A study of Mus musculus with 4 samples.

Results

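The genes that build cholesterol and fatty acids, with the regulators and carriers around them, were examined in mouse embryo fibroblasts (MEFs) that lack STMN1, the gene for the microtubule-destabilizing protein stathmin. A list of 40 genes was matched to the gene names printed for the array's probes, which found 39 of them among 27962 gene names, and 38 could be tested among 18761. The list holds 18 enzymes of sterol synthesis, 5 regulators of the sterol regulatory element-binding proteins (SREBPs), 3 sterol transport proteins and 14 enzymes of fatty acid synthesis. Each of 4 two-color Agilent arrays compared RNA of the 2 genotypes directly, with STMN1-/- MEF RNA in Cy3 on arrays 1 and 2 and in Cy5 on arrays 3 and 4. Both genotypes were C57BL/6, and the cells were primary cultures from mid-gestation embryos grown in serum-containing medium. In STMN1-/- MEFs a neomycin cassette disrupts the gene. The source embryo or extract of an array is stated neither in the labels nor in the methods. P-values therefore rest on array-to-array spread alone, and that spread may be technical.

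Cells make cholesterol from acetyl-CoA through mevalonate, isoprenoid diphosphates, squalene and lanosterol, and they make fatty acids from the same acetyl-CoA through malonyl-CoA. Most genes of both pathways are known targets of the SREBPs, membrane-bound transcription factors that Scap escorts out of the endoplasmic reticulum when sterols are low and that the Insig proteins hold back when sterols are plentiful. Srebf2 is known mainly for the sterol genes and Srebf1 mainly for the fatty acid genes.

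Most of these genes were up-regulated in STMN1-/- MEFs by a modest amount, and none was down-regulated. Of the 38 tested, 25 passed the test with higher signal in STMN1-/- MEFs and 0 with lower signal. At an unadjusted p under 0.05 in limma, 29 were past it, 0 of them lower, and the methods' t-test also called 0 lower. Of all gene names, 7198 of 18761 were past that unadjusted cutoff, in either direction. Over all gene names tested, 12.3% were called higher and 11.6% lower. The called members differed by 1.18-fold to 2.03-fold, and the mean log2 ratio of STMN1-/- over STMN1+/+ was above 0 for 37 of the 38. Here a log2 ratio of 1 is a 2-fold difference, and each gene is represented by its brightest tested probe. The call is an adjusted p under 0.05 in limma (two-sided, Benjamini-Hochberg adjusted over 27648 probes). Median log2 ratios were 0.46 for the 38 members and 0.00 for all gene names.

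The count of members depended on the number of arrays. Without array 1, 2, 3 or 4 in turn, 13, 12, 13 and 15 members were called higher, against 6.78%, 5.97%, 6.24% and 5.91% of all gene names, and 0 were called lower each time. The methods' t-test called 15. Of the 25, 10 were called in all 13 alternative limma fits, namely Pmvk, Mvd, Fdft1, Tm7sf2, Dhcr7, Insig1, Acss2, Scd2, Fads1 and Acsl3. Members were also bright: of the 19 at or above the median member's signal of 20490, 12 were called higher, against 13.3% of the gene names at or above that signal.

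**Figure D1:**
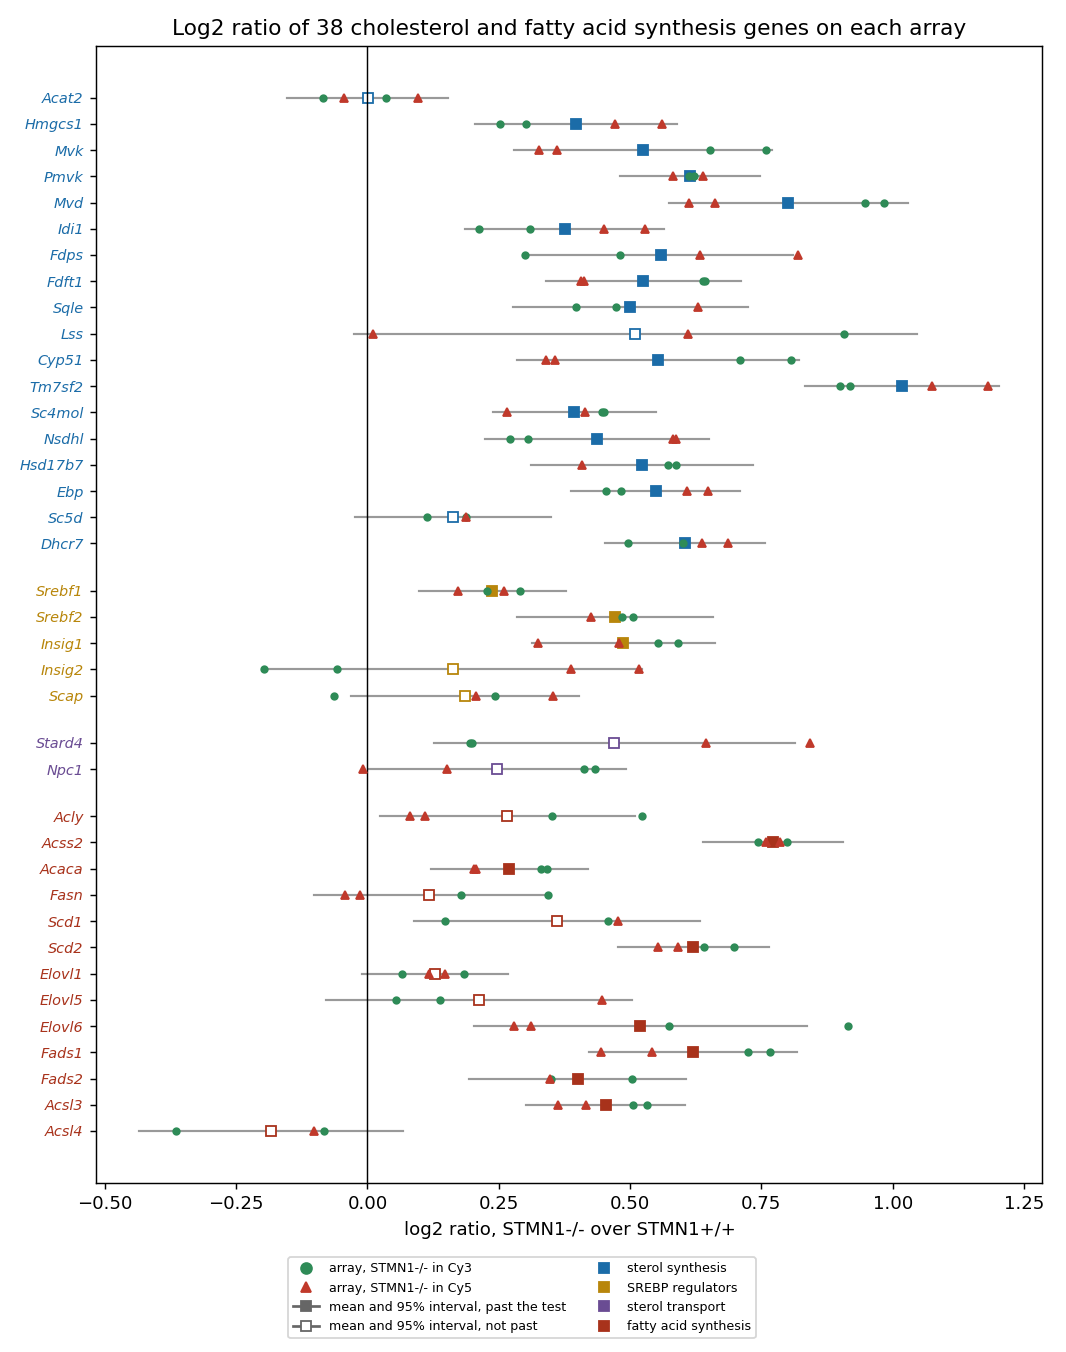
Log2 ratio of STMN1-/- over STMN1+/+ (horizontal axis) for the 38 tested members in pathway order, with each array as a point, the mean as a square and its 95% interval as a line. Filled squares mark the 25 members past the test, all right of 0, and Acsl4 is the only member with a mean below 0.

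Some facts of the whole data set bear on these values. Median processed signals were 1644 to 1799 for STMN1-/- and 1648 to 1799 for STMN1+/+ RNA, and no probe was saturated. Log2 ratios of all tested probes correlated with r of 0.69 and 0.70 for array pairs with equal dye labels and 0.44 to 0.49 for pairs with swapped labels, across probes, which are not independent replicates. Stmn1 itself was lower on every array, with log2 ratios of -2.24, -2.21, -2.14 and -2.03 at one probe and -0.52, -0.46, -0.35 and -0.24 at another. The study describes an array probe for Stmn1 as also matching another chromosome, without saying which of these probes it is, and cross-matches were not analysed here. Fibroblast markers were present in both genotypes, and 8 of 10 were called higher and 1 lower, with a median log2 ratio of 0.90.

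Markers of other cell types moved with genotype too. For comparison, 12.3% of all gene names were called higher and 11.6% lower. An unadjusted p under 0.05 in limma was found for 7198 of 18761. Of 10 adipocyte markers tested, 0 were called higher and 6 lower in limma, with 9 at an unadjusted p under 0.05 (median log2 ratio -0.70), and their summed signal was 16711 to 20687 in STMN1-/- and 28138 to 29773 in STMN1+/+ RNA. The adipocyte markers Adipoq, Cidea, Cfd and Plin were not well above background on any STMN1-/- array, so they entered the test through STMN1+/+ alone. Adipoq, Cidea and Cfd are among those called lower. The adipocyte counts and median therefore rest in part on genes admitted by the genotype where they are high. Lep entered through STMN1-/- alone. Of 7 epithelial markers, 0 were higher and 5 lower in limma, with 6 at an unadjusted p under 0.05 and summed signals of 46388 to 53411 against 60638 to 68245. Cdh1, counted among those lower, was well above background on 4 STMN1+/+ arrays and 0 STMN1-/- arrays. It therefore entered the test through STMN1+/+ alone, and its call is no separate evidence of a difference. Of 6 macrophage markers, 1 was higher and 2 lower, with sums of 127183 to 148575 against 152893 to 174394. Most of these sums came from Lyzs alone, at 119064 to 139526 against 142686 to 164854. Lyzs did not pass the test (adjusted p = 0.0856 in limma). The part of these cell types in the members' ratios was not tested, and fewer cells of a type and less RNA per cell cannot be told apart in bulk RNA.

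Promoter sequences are shown first because the members moved in the same direction and many are known to share SREBP control. RefSeq promoters (GRCm38.p6), each running from 250 bases before to 50 bases after the start of the gene, were found for 32 of the 40 members. Fdps, Fdft1, Sqle, Stard4, Npc1, Scd1, Scd2 and Fads1 had none in the table. The 250 bases before the start are printed for Hmgcs1, which holds a sterol regulatory element (SRE), for the members with the largest log2 ratios among those with a sequence, Tm7sf2, Mvd and Acss2, and for Acat2, which did not pass the test. Capitals mark the SRE (TCACCCCAC) and the CCAAT box, which reads ATTGG where it lies on the other strand.
Hmgcs1 promoter, chr13:119690101-119690350, plus strand: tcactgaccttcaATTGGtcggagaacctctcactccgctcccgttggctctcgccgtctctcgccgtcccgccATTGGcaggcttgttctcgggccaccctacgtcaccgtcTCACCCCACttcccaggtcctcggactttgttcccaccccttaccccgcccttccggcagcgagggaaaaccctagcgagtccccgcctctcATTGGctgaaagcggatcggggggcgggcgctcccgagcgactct
Tm7sf2 promoter, chr19:6067851-6068100, minus strand: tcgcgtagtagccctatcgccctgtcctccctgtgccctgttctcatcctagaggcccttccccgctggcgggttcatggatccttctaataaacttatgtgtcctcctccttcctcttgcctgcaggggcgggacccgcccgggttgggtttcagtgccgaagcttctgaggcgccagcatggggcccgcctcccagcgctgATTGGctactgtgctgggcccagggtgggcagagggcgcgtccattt
Mvd promoter, chr8:122443423-122443672, minus strand: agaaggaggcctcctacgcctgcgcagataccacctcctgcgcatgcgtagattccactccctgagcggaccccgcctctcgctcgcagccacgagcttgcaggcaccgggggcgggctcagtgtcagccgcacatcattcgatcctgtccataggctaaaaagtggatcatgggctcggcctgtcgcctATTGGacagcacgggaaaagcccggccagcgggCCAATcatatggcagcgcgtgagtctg
Acss2 promoter, chr2:155517793-155518042, plus strand: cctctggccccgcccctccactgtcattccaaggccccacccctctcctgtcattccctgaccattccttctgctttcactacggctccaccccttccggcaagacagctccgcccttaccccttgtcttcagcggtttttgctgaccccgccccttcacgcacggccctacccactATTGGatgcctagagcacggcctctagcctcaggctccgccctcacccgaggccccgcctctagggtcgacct
Acat2 promoter, chr17:12960726-12960975, minus strand: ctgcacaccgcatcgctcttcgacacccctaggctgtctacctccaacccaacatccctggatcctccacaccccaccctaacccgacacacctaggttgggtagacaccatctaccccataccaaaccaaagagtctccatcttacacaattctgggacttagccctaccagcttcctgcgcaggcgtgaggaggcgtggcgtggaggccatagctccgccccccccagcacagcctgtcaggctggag

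The SRE letters TCACCCCAC, searched on both strands, were found in 1 of the 32 members, Hmgcs1, where the match starts 137 bases before the gene's start. A gene counts when any of its promoters holds the letters. Of 27025 genes with a promoter, 0.614% hold them, and of all 32851 promoters of this length, 0.551% do. With N for any base (TCACNCCAC, which includes the first motif), the same 1 member was found, against 1.44% of genes and 1.24% of all promoters. CCAAT, the box bound by the factor NF-Y, was found in 26 of the 32 members, or 81.2%, against 41.1% of 27025 genes with a promoter and 37.4% of all promoters. By class, 14 of 15 sterol synthesis genes, 4 of 5 SREBP regulators and 7 of 11 fatty acid synthesis genes held it. The members without it were Acaca, Elovl6 and Fads2, which were called higher, and Acat2, Scap and Acsl4, which were not. Uncalled members such as Fasn, Insig2 and Elovl1 held it, so the printed promoters do not show the full pattern. The E-box CACGTG was found in 6 of 32 members (18.8%) against 8.09% of all genes. A match of letters is a description of these windows only, and a window without a match says nothing about the factor.

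Sterol synthesis genes formed the class with the most calls. Of 18 tested, 15 were higher and 0 lower in STMN1-/- MEFs, and the class median log2 ratio was 0.52, or 1.44-fold. That median was 0.49, 0.46, 0.56 and 0.53 on arrays 1 to 4, so no array stood apart. Of all gene names tested, 6.36% had a log2 ratio at or above it.

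The pathway opens with Acat2, the thiolase that joins acetyl-CoA units. Its signal was 2728, 2621, 2357 and 3012 in STMN1-/- against 2661, 2781, 2431 and 2818 in STMN1+/+ RNA on arrays 1 to 4, so the groups overlapped. The log2 ratio was 0.00 with a 95% interval of -0.15 to 0.15 (adjusted p = 0.996 in limma), and Acat2 was the sterol synthesis member nearest to 0. Hmgcs1, the synthase that makes HMG-CoA, was higher at 0.25, 0.30, 0.56 and 0.47 on arrays 1 to 4 (mean 0.40, adjusted p = 0.0222 in limma). A dimmer Hmgcs1 probe gave 0.85, 0.59, 0.36 and 0.13 and did not pass the test (adjusted p = 0.0544 in limma). The brightest Hmgcs1 probe had a usable spot on array 1 only, at 0.95, and with the outlier spots kept its mean was 0.69. All 3 probes were therefore above 0 wherever they were measured. The array files place them on an unassigned part of mm7, whereas RefSeq places Hmgcs1 on chromosome 13.

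Mvk, Pmvk and Mvd, which phosphorylate mevalonate and decarboxylate it to isopentenyl diphosphate, were all up-regulated. Pmvk signals were 69418, 69946, 65193 and 78642 in STMN1-/- and 45406, 45455, 43536 and 50492 in STMN1+/+ RNA. Every STMN1-/- value of Pmvk exceeded every STMN1+/+ value, the log2 ratio held between 0.58 and 0.64 on the 4 arrays, and the mean was 0.61 ± 0.05 (SE, n = 4). A further Pmvk probe gave a mean of 0.70. Mvd signals were 25894, 27133, 21888 and 25231 against 13102, 14062, 14310 and 15956, again without overlap. Mvd had log2 ratios of 0.98, 0.95, 0.61 and 0.66 and a mean of 0.80, or 1.74-fold (adjusted p = 0.00554 in limma). The ratios of Mvk were 0.65, 0.76, 0.36 and 0.33 (mean 0.52). Its dimmer probe, at 0.59, 0.57, -0.01 and 0.06, did not pass the test (adjusted p = 0.168 in limma), and both probes were lower on the arrays with STMN1-/- RNA in Cy5.

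**Figure D2:**
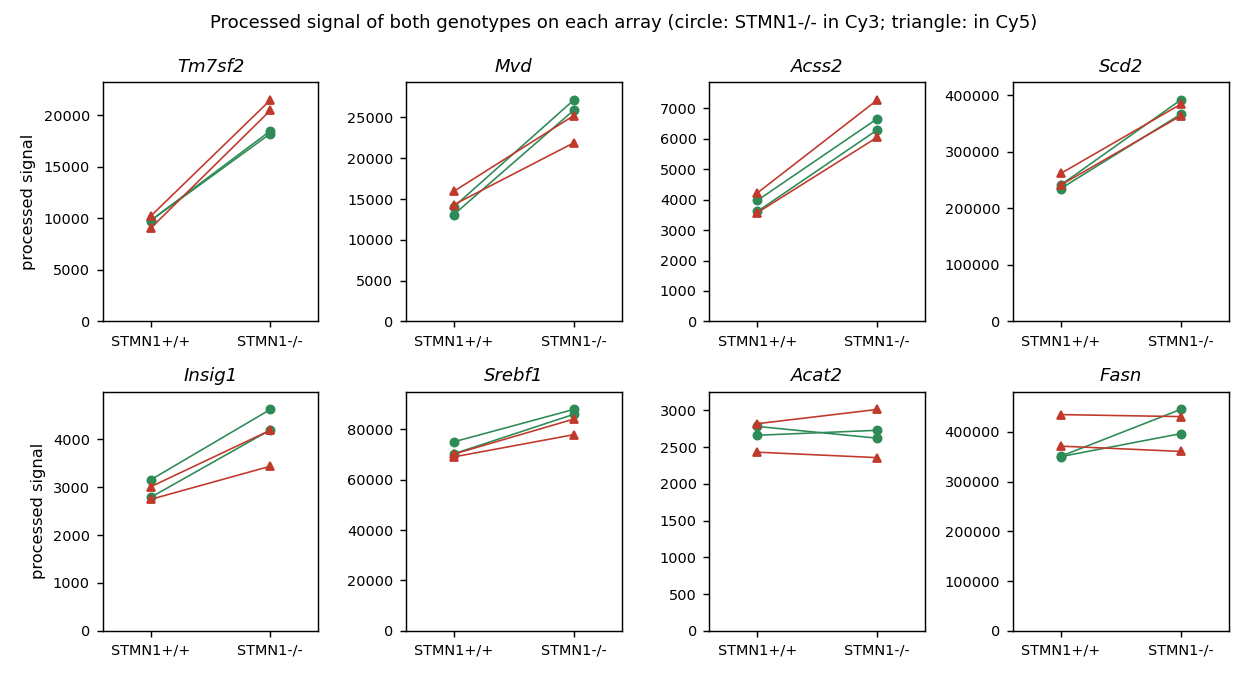
Processed signal (vertical axis, starting at 0) of STMN1+/+ and STMN1-/- RNA for 8 members, with a line for each array. Lines rise on all 4 arrays for Tm7sf2, Mvd, Acss2, Scd2, Insig1 and Srebf1, and cross for Acat2 and Fasn.

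Isoprenoid diphosphates are then joined to squalene. Idi1, which isomerizes isopentenyl diphosphate, had log2 ratios of 0.21, 0.31, 0.53 and 0.45 (mean 0.38), and its dimmer probe gave the same mean of 0.38. The array files place both Idi1 probes on chromosome 2 of mm7, whereas RefSeq places the gene on chromosome 13. Fdps, the farnesyl diphosphate synthase, had 0.48, 0.30, 0.82 and 0.63 (mean 0.56), a spread of more than 0.5 between arrays. A far brighter Fdps probe had a usable spot on array 2 only, at 0.57. With outlier spots kept, that probe had a mean of 0.55 (adjusted p = 0.00531 in limma). Fdft1, the squalene synthase, had 0.64, 0.64, 0.41 and 0.41 (mean 0.53). A second, far dimmer Fdft1 probe ran from 0.01 to 2.29 and did not pass the test (adjusted p = 0.185 in limma). Sqle, the squalene epoxidase, was measured on 3 arrays at 0.47, 0.40 and 0.63 (mean 0.50), since its spot on array 4 was marked as an outlier. All 4 of these genes were called higher, with adjusted p-values of 0.0096 to 0.0249 in limma.

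Lss, which closes squalene epoxide to lanosterol, was not called at its brightest probe. That probe gave 0.91, 0.01 and 0.61 on arrays 1, 3 and 4 (mean 0.51, 95% interval -0.03 to 1.05, adjusted p = 0.148 in limma), with no usable spot on array 2. The other Lss probes, in mm7 coordinates at chr10:76206315-76206374 and chr10:76212419-76212478, were above 0 on every array, with means of 0.75 and 0.60, and both passed the test. Sc5d, the sterol desaturase near the end of the pathway, differed between probes in the same way. Its brightest probe gave 0.19, 0.11 and 0.19 on 3 arrays (mean 0.16, adjusted p = 0.174 in limma), and its dimmer probe 0.59, 0.69, 0.53 and 0.44 (mean 0.56, adjusted p = 0.00622 in limma). The ranges of the Sc5d probes did not overlap, and whether they read different transcripts was not tested. Counting any called probe, 17 of the 18 sterol synthesis genes were higher.

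Tm7sf2, a sterol reductase that acts directly after Cyp51, had the largest ratio of all members. Its signals were 18503, 18234, 21496 and 20491 in STMN1-/- and 9794, 9780, 10209 and 9035 in STMN1+/+ RNA. The lowest STMN1-/- value lay far above the highest STMN1+/+ value, and the log2 ratios were 0.92, 0.90, 1.07 and 1.18. The mean was 1.02 ± 0.07 (SE, n = 4), or 2.03-fold (adjusted p = 0.00178 in limma). Cyp51, the lanosterol demethylase, had 0.81, 0.71, 0.34 and 0.36 (mean 0.55), and all 3 of its probes were called higher.

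The enzymes that trim and rearrange the sterol ring were each called higher. Sc4mol (Msmo1 in RefSeq), which oxidizes sterol methyl groups, was the brightest sterol synthesis member and had log2 ratios of 0.45, 0.45, 0.42 and 0.27. Nsdhl and Hsd17b7, which complete the removal of those methyl groups, had means of 0.44 and 0.52, and all 4 Nsdhl probes were called. Nsdhl was 0.31, 0.27, 0.58 and 0.59 on arrays 1 to 4, and Hsd17b7 was 0.57, 0.59 and 0.41 on arrays 1, 2 and 4. Ebp, a sterol isomerase, had 0.48, 0.46, 0.65 and 0.61 (mean 0.55). Dhcr7, the reductase that ends the pathway to cholesterol, had 0.50, 0.60, 0.69 and 0.64 (mean 0.60, adjusted p = 0.00395 in limma). None of these ratios was below 0 on any array.

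SREBP regulators showed smaller ratios. Of 5 tested, 3 were higher and 0 lower, and the class median was 0.24. Srebf2 was called at its brightest probe, with 0.48, 0.51 and 0.42 on arrays 1 to 3 (mean 0.47, adjusted p = 0.0173 in limma). Its 3 other probes had means of 0.41, 0.14 and 0.14, all above 0 on every array, and none passed the test (adjusted p-values of 0.0748 to 0.257 in limma). Srebf1 had the smallest ratio among the called members, at 0.29, 0.23, 0.17 and 0.26 (mean 0.24, adjusted p = 0.0367 in limma). Insig1, which retains SREBPs and is itself a known SREBP target, had signals of 4624, 4197, 3438 and 4190 against 3152, 2787, 2745 and 3008. Its STMN1-/- values lay above all its STMN1+/+ values, and the mean log2 ratio was 0.49 (adjusted p = 0.00997 in limma). Insig2, its paralog, had log2 ratios of -0.06, -0.20, 0.52 and 0.39 at its brightest probe (95% interval -0.20 to 0.52, adjusted p = 0.459 in limma), below 0 in one dye orientation and above 0 in the other. A dimmer Insig2 probe did not split by dye, at 0.07, 0.06, 0.06 and 0.07 (95% interval -0.06 to 0.20, adjusted p = 0.403 in limma). Scap had -0.06, 0.24, 0.35 and 0.21 (mean 0.18, 95% interval -0.03 to 0.40).

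Sterol transport was represented by 2 tested genes, and neither passed the test at its brightest probe. Stard4, a cytosolic sterol carrier, had 0.20, 0.19, 0.64 and 0.84 (mean 0.47, adjusted p = 0.0651 in limma). A dimmer Stard4 probe, at 0.24, 0.24, 0.26 and 0.46, was called higher (mean 0.30, adjusted p = 0.0329 in limma), and another at a mean of 0.22 was not. Npc1, a membrane protein that moves cholesterol out of lysosomes, had 0.41, 0.43, 0.15 and -0.01 (mean 0.25, adjusted p = 0.133 in limma). Npc2, its soluble partner, had a usable spot on array 3 only, with a log2 ratio of 0.40, and was not tested. With outlier spots kept, Npc2 had a mean of 0.51 and was called higher (adjusted p = 0.0147 in limma).

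**Figure D3:**
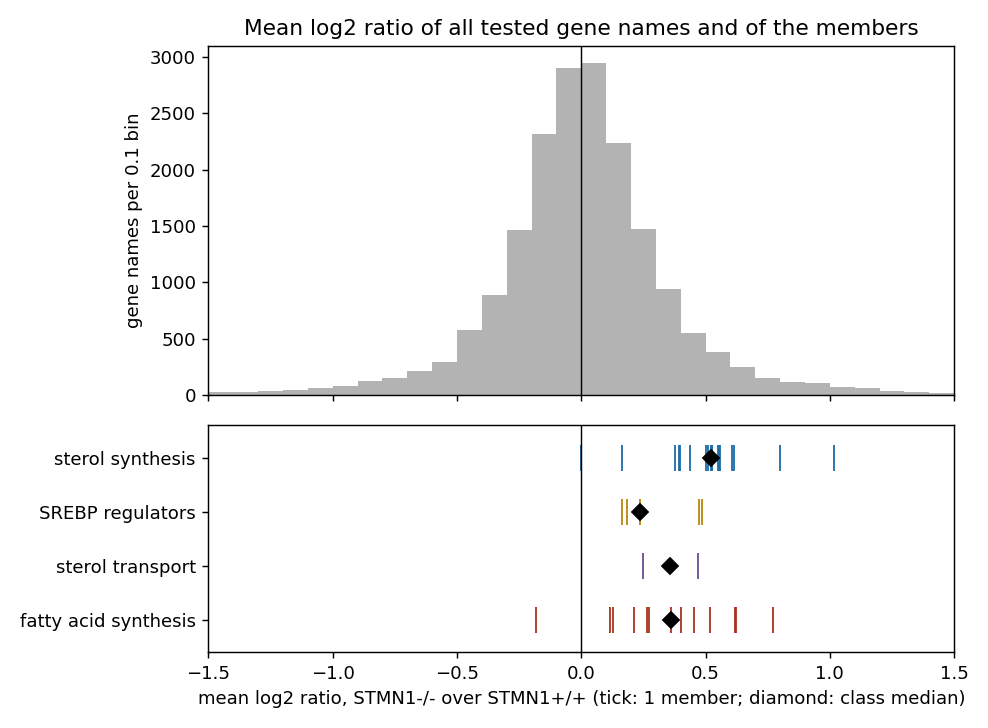
Mean log2 ratio of STMN1-/- over STMN1+/+ (horizontal axis) for all 18761 gene names as counts in bins of 0.1, shown from -1.5 to 1.5, and for each member as a tick with the class median as a diamond. All gene names centre on 0, and the class medians lie at 0.52, 0.24, 0.36 and 0.36.

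Fatty acid synthesis genes were called less uniformly. Of 13 tested, 7 were higher and 0 lower, and the median log2 ratio was 0.36, or 1.28-fold. On arrays 1 to 4 that median was 0.46, 0.35, 0.38 and 0.24. The sterol synthesis median was above it on each array, and the difference between the classes was not tested.

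The enzymes that make and carboxylate acetyl-CoA come first. Acss2, which makes acetyl-CoA from acetate, had signals of 6286, 6655, 6044 and 7268 in STMN1-/- and 3611, 3973, 3572 and 4218 in STMN1+/+ RNA. These groups did not overlap, and the log2 ratios of 0.80, 0.74, 0.76 and 0.79 were within 0.1 of each other. The mean was 0.77 ± 0.05 (SE, n = 4), or 1.71-fold, with the smallest adjusted p of all members (0.00152 in limma). A second probe near it was called at 0.60, while a dim probe for a cDNA of the same name, at chr2:155259665-155259724 in mm7, had a mean of -0.06. Acly, which makes acetyl-CoA from citrate, had 0.35, 0.52, 0.11 and 0.08 (mean 0.27, adjusted p = 0.11 in limma). Acaca, which carboxylates acetyl-CoA to malonyl-CoA, had 0.33, 0.34, 0.21 and 0.20 and was called at its brightest probe (mean 0.27, adjusted p = 0.0319 in limma). The means of its 3 dimmer probes were 0.18, 0.13 and 0.29, and none of them passed the test.

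Fasn, the fatty acid synthase and the brightest member, did not pass the test. Its signals were 396288, 444957, 360625 and 430578 in STMN1-/- against 350156, 350770, 371218 and 434567 in STMN1+/+ RNA, so the groups overlapped. The log2 ratios were 0.18, 0.34, -0.04 and -0.01 (mean 0.12, 95% interval -0.10 to 0.34, adjusted p = 0.384 in limma), and a dimmer Fasn probe gave 0.25, 0.10, 0.13 and 0.15 (adjusted p = 0.114 in limma). Me1, the malic enzyme that supplies NADPH, was not found by that name. Its RefSeq accession belongs to a probe named Mod1 on the array, whose log2 ratio was -0.10 and -0.13 on arrays 3 and 4 (adjusted p = 0.448 in limma), with no usable spot on the others.

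Desaturases and elongases shape the new fatty acids. Scd2, a stearoyl-CoA desaturase, had signals of 366362, 391685, 363528 and 384098 against 235103, 241441, 241315 and 261781, with no overlap. Its log2 ratios were 0.64, 0.70, 0.59 and 0.55 (mean 0.62, 1.54-fold, adjusted p = 0.00321 in limma). Its relative Scd1 had 0.46, 0.15 and 0.48 on 3 arrays and missed the threshold (mean 0.36, adjusted p = 0.0754 in limma), but passed with outlier spots kept (adjusted p = 0.0277 in limma). Fads1 and Fads2, which desaturate polyunsaturated fatty acids, were both called higher, with means of 0.62 and 0.40. Fads1 ratios were 0.72, 0.77, 0.44 and 0.54, and Fads2 ratios were 0.50, 0.35 and 0.35 on arrays 1 to 3.

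Among the elongases, Elovl6, which lengthens saturated fatty acids, was called at 0.92, 0.57, 0.31 and 0.28 (mean 0.52, adjusted p = 0.0407 in limma). This was the largest adjusted p among the called members, and the ratio on array 1 was more than 0.6 above that on array 4. Elovl1 had 0.18, 0.07, 0.12 and 0.15 (mean 0.13) and Elovl5 had 0.05, 0.14 and 0.45 on arrays 1 to 3 (mean 0.21), and neither passed the test (adjusted p = 0.159 and 0.235 in limma). Acsl3, which activates long-chain fatty acids to their CoA esters, was higher at 0.50, 0.53, 0.42 and 0.36 (mean 0.45, adjusted p = 0.00823 in limma). Its relative Acsl4 was the only member with a mean below 0, at -0.36, -0.08 and -0.10 on arrays 1, 2 and 4 (mean -0.18, adjusted p = 0.236 in limma). A dimmer Acsl4 probe had a mean of -0.01, with both signs among its arrays.

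Over all probes of the members, 68 of 75 were tested, 40 were called higher and 0 lower, against 11.2% of all tested probes called higher. A positive mean was found for 65 of the 68. Counted over any tested probe, 28 members were higher, and for 9 members some but not all tested probes passed. Of the 29 members measured on all 4 arrays, 24 were higher on each array, against 24.1% of gene names.

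Ratios differed between the dye orientations. In 23 of the 29 members measured on every array, the ratios of arrays 1 and 2 did not overlap those of arrays 3 and 4, against 63.9% of all gene names. In 14 of them the ratio was higher with STMN1-/- RNA in Cy3, as for Cyp51 (mean 0.76 against 0.35) and Elovl6 (0.74 against 0.29). In the other 9 it was higher with STMN1-/- RNA in Cy5, as for Stard4 (0.20 against 0.74) and Tm7sf2 (0.91 against 1.13). Of all gene names without overlap, 4971 were higher with STMN1-/- RNA in Cy3 and 6477 with it in Cy5. At the brightest tested probe, 2 of the 29 (6.9%), Insig2 and Fasn, had opposite signs in the 2 orientations on all arrays. Of all gene names, 19% did. The dimmer tested probes of Insig2 and Fasn did not split in this way, whereas a dimmer probe each of Acss2 and Acsl4 did. The median gap between orientations was 0.23 for the members and 0.20 for all gene names. For members measured on all 4 arrays the orientations hold equal numbers of arrays, so the mean ratio balances them. For members measured on 3 arrays, 4 of which were called higher, the mean ratio does not balance them. With the dye effect as a coefficient of the fit, 29 members were called higher and 0 lower, against 20.4% of gene names called higher. Which arrays shared an RNA extract is not stated, so dye and extract cannot be told apart.

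**Figure D4:**
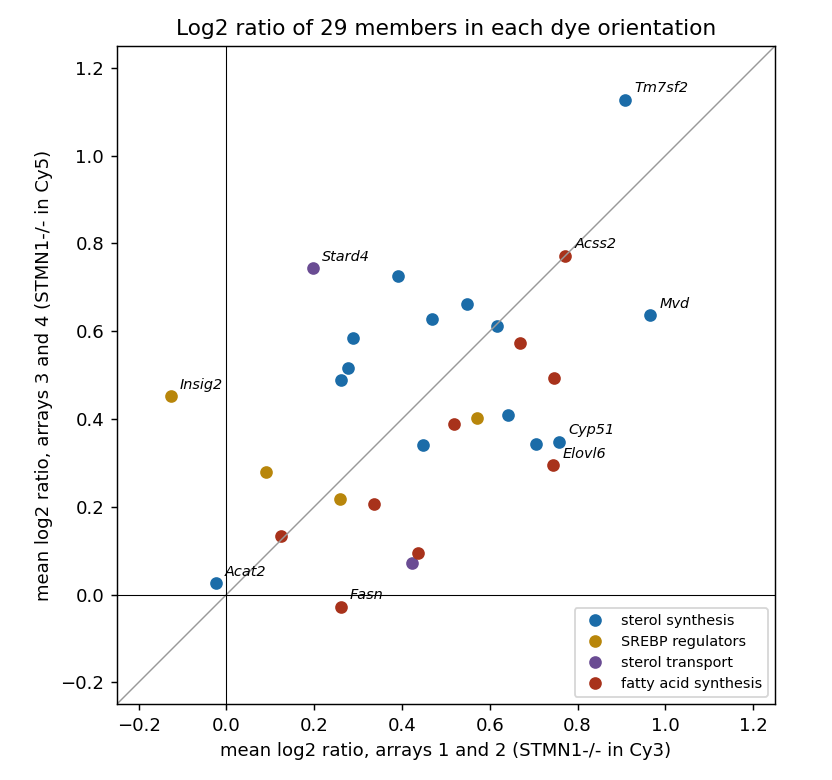
Mean log2 ratio of STMN1-/- over STMN1+/+ on arrays 1 and 2 (horizontal axis, STMN1-/- in Cy3) and arrays 3 and 4 (vertical axis, STMN1-/- in Cy5) for the 29 members measured on every array, with the line of equal ratios. Acss2 lies on the line, Stard4 and Insig2 lie furthest above it, and Fasn is below 0 on the vertical axis only.

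Other genes of these pathways, taken from fixed lists, moved less uniformly. Among 15 further sterol and uptake genes tested, 6 were called higher and 1 lower, with a median log2 ratio of 0.29. The shares over all gene names were 12.3% higher and 11.6% lower. Vldlr, a lipoprotein receptor, had 0.91, 0.81, 0.82 and 0.69 (mean 0.81, adjusted p = 0.00206 in limma). Mylip, a ubiquitin ligase that removes lipoprotein receptors, was higher too, at 0.83, 0.82, 1.10 and 0.99 (mean 0.93). Abcg1, a sterol exporter, was lower at -0.47, -0.65, -0.69 and -0.63 (mean -0.61, adjusted p = 0.00457 in limma).

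Of 5 genes of SREBP processing and turnover, 1 was higher and 1 lower, with a median of -0.05. Over all gene names, 12.3% were called higher and 11.6% lower. Mbtps1 and Mbtps2 encode the proteases that cut SREBPs in turn, and they were called in opposite directions. Mbtps1 was 0.55, 0.63, 0.26 and 0.18 (mean 0.40, adjusted p = 0.044 in limma), and Mbtps2 was -0.49, -0.30, -0.41 and -0.54 (mean -0.43, adjusted p = 0.0119 in limma). Mbtps2 was far dimmer, with mean signals of 315 in STMN1-/- and 429 in STMN1+/+ RNA, against 155453 and 117570 for Mbtps1. The isoprenoid branch, which leaves the sterol pathway at farnesyl diphosphate, had 0 of 8 higher and 1 lower, with a median of -0.04. At an unadjusted p under 0.05 in limma, 2 of the 8 passed, both with ratios below 0. Of all gene names, 7198 of 18761 passed that cutoff, a larger share. The called gene was Pdss1, a synthase for the coenzyme Q side chain, at -0.44, -0.49, -0.39 and -0.24 (mean -0.39).

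Of 14 further fatty acid genes, 2 were higher and 2 lower, and the median was 0.08. Both counts were near the shares over all gene names, 12.3% higher and 11.6% lower. Slc25a1, the carrier that exports citrate from mitochondria, had 0.40, 0.44, 0.37 and 0.32 (mean 0.38, adjusted p = 0.0107 in limma). Mlycd, which breaks malonyl-CoA down, had a mean of 0.30, and the elongases Elovl4 and Elovl7 were lower at -0.34 and -0.32. The elongases tested here included called genes in both directions, with Elovl6 higher.

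**Figure D5:**
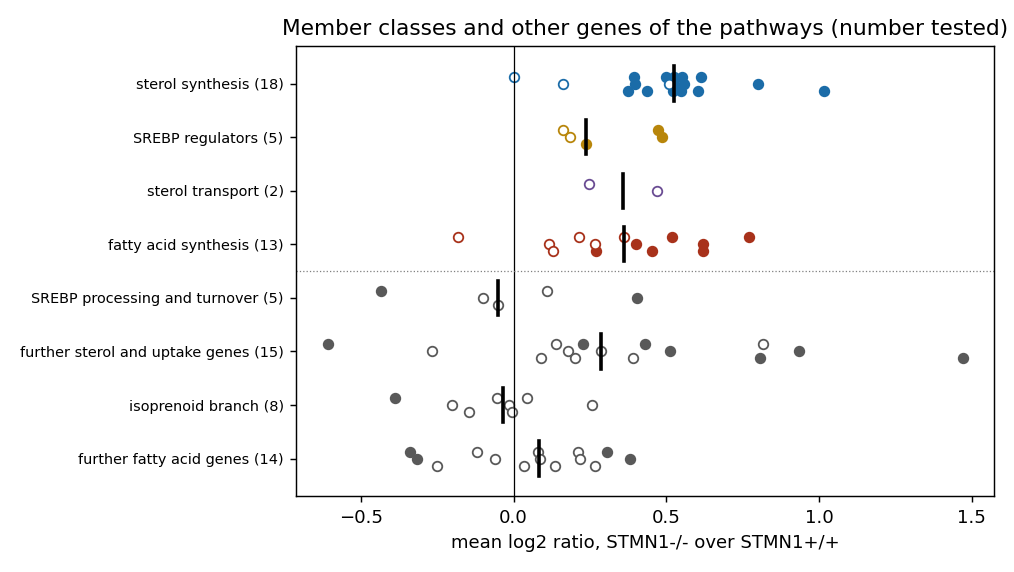
Mean log2 ratio of STMN1-/- over STMN1+/+ (horizontal axis) for the genes of the 4 member classes (above the dotted line) and of 4 other lists of the same pathways, with filled points past the test and the median as a bar. The sterol synthesis genes lie furthest right as a class at a median of 0.52, and the isoprenoid branch centres on -0.04.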

How the data were processed

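The data are 4 two-color Agilent arrays (Whole Mouse Genome, probes placed on mouse build mm7 per the file headers). The deposited intensity values (processed, mean and background signals) came from Agilent Feature Extraction 9.5.3.1. The authors' settings, per the file headers, detrended each array in space, normalized the dyes by LOWESS and replaced dim signals by surrogates. The log10 values deposited beside them are Cy5 over Cy3 ratios from the same program, and served as an alternative. The authors' own lists of selected probes with fold changes were not used.

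Log2 ratios of STMN1-/- over STMN1+/+ processed signals were turned by the dye labels. Of 45018 spots per array, 1639 were controls and were left out, as were 472 to 711 outlier spots, and spots of a probe were averaged within an array. Probes were kept when a channel of any array was well above background (27759 of 41174), and 27648 had the 2 or more usable values needed for a test, 26607 of them on every array. The number of arrays limits the precision. Ratios were tested against 0 in limma 3.58.1 (R 4.3.3) by its moderated two-sided test, p-values were adjusted by Benjamini-Hochberg over the 27648 probes with a threshold of 0.05, and the test used 4 arrays that all share 1 slide and 1 scan. A gene is represented by its brightest tested probe. The fit was tested on simulated data. Tables and figures used Python 3.11.15, pandas 2.3.3, numpy 2.4.6 and matplotlib 3.10.9.

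The members, classes, other pathway lists and marker lists were chosen with earlier results of these data known. Every member is named, and array values are given for called members, for those whose probes disagree and for the brightest of each class. Of the other lists, at most 3 called genes each are named by size of the log2 ratio, leaving out items that are not reported here. Alternatives were normexp (offset 50) followed by loess, the deposited log10 ratios, median centring, no filter and a stricter filter on dim probes, outlier spots kept, a dye coefficient, arrays of opposite dye averaged, the methods' t-test with or without their limit of 50% on the coefficient of variation, all probes of a gene, each array left out and each dye orientation alone. Probe cross-matches were not analysed here.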

Additional observations from a re-analysis of the deposited data

How the results depend on the processing

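Of 596 alternative values for single members, 510 kept their side of the threshold or, without a p-value, stayed within the spread between arrays. Another 64 lost the call, 14 gained it, 8 moved by more than that spread and 0 reversed. A change of sign counted as reversed only for a called member. Uncalled members could change sign, as Acat2 did from 0.00 to -0.04 with normexp and loess. The count of members called higher, 25, ranged from 12 to 15 with each array left out in turn and was 15 with the methods' t-test, both without and with the coefficient of variation under 50%. In these smaller fits and tests, fewer gene names were called as well (5.91% to 8.66% higher). It was 17 with normexp and loess and 17 with no filter on dim probes, where 4.49% and 5.32% of gene names were called higher, and 25 to 29 in the other alternatives. The count called lower was 0 in every alternative. With normexp and loess the sterol synthesis median was 0.44 and the sterol transport median 0.29. The sterol transport median, over 2 genes in the main fit, was 0.27 over all tested probes of each gene. With outlier spots kept that median was 0.47, the value of Stard4, because Npc2 was then tested too. With STMN1-/- RNA in Cy5 only, the fatty acid synthesis median was 0.25. The cause of the other shifts was not tested. Keeping outlier spots adds Npc2 to the sterol transport genes, and averaging arrays of opposite dye leaves 34 members with values. No block for slide or scan was possible, since all arrays share 1 of each. Each ratio already pairs the genotypes within an array, so no further replicate block was fitted. Signal over background limits the dim probes: 4 of the 75 member probes were not well above background on any array.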
